A study of Mus musculus with 12 samples.

Results

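Semaphorins, plexins, neuropilins, Eph receptors, ephrins, Slits and Robos make up the main families of guidance ligands and receptors, and RNA of all these genes was followed in mouse embryonic fibroblasts that carried HOXB13, a homeobox transcription factor, or a control virus. The genes were chosen by symbol alone, as every gene of the deposited table named as a class 3 to class 7 semaphorin, a plexin, a neuropilin, an Eph receptor, an ephrin, a Slit or a Robo, and 60 of 55573 genes met that rule. They were 20 semaphorins, 9 plexins, 2 neuropilins, 14 Eph receptors, 8 ephrins, 3 Slits and 4 Robos. All 12 cultures came from β-actin-TVA/p53-/- mice, a strain labelled as lacking p53 that carries a β-actin-TVA transgene for TVA, an avian protein that lets RCAS viruses of birds infect mouse cells. HOXB13 cells had been transduced with RCAS-HOXB13, and vector cells with RCAS-GFP, which encodes a fluorescent protein. In each of the 2 arms, 3 libraries came from cells kept for 21 days in OsteoMAX-XF, a commercial osteogenic medium, and 3 from confluent cells at day 1, before that medium was given. Day, medium and plate therefore go together. The labels describe triplicate wells and no separate embryos or transductions, so p-values measure the spread between these wells, which may be technical.

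Guidance ligands steer growing axons and also migrating and sorting mesenchymal cells. Secreted class 3 semaphorins bind neuropilins, which signal through class A plexins, whereas membrane-bound semaphorins bind plexins directly. Eph receptors are tyrosine kinases that bind ephrins on a neighbouring cell, and signals can run into both cells. Slits are secreted ligands of Robo receptors. In mouse bone, Sema3a from osteoblast lineage cells, Sema4d from osteoclasts and the pairing of ephrin-B2 with EphB4 are known regulators of bone formation.

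Levels are gene reads per 1000000 reads of the library size after the authors' TMM scaling (RPM), a factor meant to make libraries of different composition comparable. Total gene reads per library ran from 11109392 to 15154317. Hoxb13 stood at 248 ± 8.59 RPM in HOXB13 and 0.343 ± 0.197 in vector cells at day 21, and at 327 ± 3.28 and 0.375 ± 0.197 at day 1 (SD, n = 3). Trp53, the p53 gene, was not at 0 in any group and averaged 32.1 ± 0.745 RPM in HOXB13 and 36.7 ± 2.05 in vector cells at day 21, and 45 ± 0.330 and 53.4 ± 1.19 at day 1, and gene totals do not show whether these reads come from a disrupted allele. Xist, expressed from an inactive X chromosome in female cells, stood at 0.332 ± 0.162 RPM in HOXB13 and 427 ± 28.8 in vector cells at day 1, while the Y-linked Ddx3y stood at 98.3 ± 1.32 and 0.171 ± 0.183. All 12 libraries followed that division, so HOXB13 and the sex or origin of the cultures cannot be told apart in any comparison of the viruses. All 9 fibroblast markers had at least 1 RPM in each group. Summed over 8 osteoblast markers, levels were 1225 to 1324 RPM in HOXB13 and 2130.2 to 2278 in vector libraries at day 21, and 118 to 129 and 121 to 124 at day 1. Most of that came from Spp1, at 1224 ± 51.5 and 1964 ± 79.6 at day 21, and Alpl was at 13.4 ± 1.09 and 232 ± 3.61. Runx2 and Ibsp stood the other way at day 21, Runx2 at 30.9 ± 1.02 and 25.6 ± 2.09, and Ibsp at 0.424 ± 0.0658 and 0.0509 ± 0.0441. Sp7 and Bglap were at most 0.157 RPM in these groups, and Bglap2 and Dmp1 had no read in either arm at day 21. Summed neuronal markers were 11.8 to 15 RPM in HOXB13 and 6.67 to 8.18 in vector libraries at day 21, and 328 to 343 and 109.7 to 116 at day 1. Summed mesothelial markers were 80.1 to 95 and 4085 to 4168 at day 21, and 194 to 207 and 1219 to 1278 at day 1. Krt19 of that list stood the other way at day 1, at 132 ± 5.02 and 82.1 ± 1.61, and made up most of the HOXB13 sum there. Summed epithelial markers were 1.14 to 1.71 and 136 to 145 at day 21, and 20.8 to 23.2 and 238 to 251 at day 1. Summed smooth muscle markers were 415 to 453 and 1147 to 1189 at day 21, and 4229 to 4481 and 12891 to 13088 at day 1. Acta2 and Tagln made up most of these sums. At day 21 Des stood the other way, at 27.7 ± 0.383 and 10.6 ± 0.474, and Myh11 was at 2.05 ± 0.584 and 1.65 ± 0.525. Endothelial markers summed to at most 5.35 RPM in any library. Summed Schwann and glial markers were 4.63 to 6.26 in HOXB13 and 139 to 149.6 in vector libraries at day 21, and 5.10 to 5.19 and 55.8 to 58.7 at day 1. Nearly all of the vector sums came from Mbp, at 144 ± 5.49 RPM in vector cells at day 21. Of the other markers of that list, Foxd3 had no read in any group and Sox10 none in 3 of the 4. For the macrophage list, sums were 66.2 to 72.5 in HOXB13 and 63.85 to 66.4 in vector libraries at day 21. At day 1 they were 3.87 to 5.00 and 4.16 to 5.18. Most of the day 21 sums came from Cd14, at 63.8 ± 2.87 and 57.7 ± 0.589, while Ptprc, Adgre1 and Lyz2 were at most 0.130 RPM in any group. The part of these other cell types in the differences below was not tested, and in bulk RNA fewer cells of a type cannot be told apart from less RNA per cell.

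Guidance genes differed between HOXB13 and vector cells in both directions, at day 21 and at day 1. Of the 60 members, 52 had at least 1 RPM in at least 3 libraries and were tested with limma, fitted on all 13516 genes that passed that filter. By an adjusted p of 0.05 alone, 24 members were higher and 22 lower in HOXB13 at day 21, and 25 higher and 21 lower at day 1, but so were 37.3% and 35.1% of all tested genes at day 21 and 33.9% and 38.5% at day 1. For that reason a member is called here only where it also changed at least 2-fold on the log2(RPM + 1) scale. At day 21, 11 of 52 were called higher in HOXB13 cells and 14 lower, where 8.15% and 8.40% of all tested genes were called. At day 1, 11 of 52 were called higher and 8 lower, where 7.20% and 6.06% of all tested genes were. These came to 48.1% of the tested members at day 21, against 16.6% of all tested genes, and 36.5% at day 1, against 13.3%. The median log2 fold change of the members was 0.13 at day 21 and 0.02 at day 1, beside 0.01 and -0.03 over all genes. Their median absolute log2 fold change was 0.94 and 0.76, beside 0.33 and 0.32. Of the tested members 4, Efna3, Efnb3, Plxnb3 and Sema5b, had all libraries at 1 RPM or more in a single group, and 2 more in a pair of groups, Epha5 in the HOXB13 groups and Sema7a in the day 1 groups. Such a gene can pass the filter through the groups where it is high, which favours a difference in that direction. In each called comparison of 2 groups in the text the libraries of the groups did not overlap. With 3 libraries per group such a call leaves little room for overlap, so this is no added support. Members past the adjusted p but under 2-fold between the viruses were also free of overlap in 27 cases at day 1. At day 21 they were in 19 cases and overlapped in 2. The share over all tested genes was not counted, so nothing particular to the members follows from these counts.

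**Figure D1:**
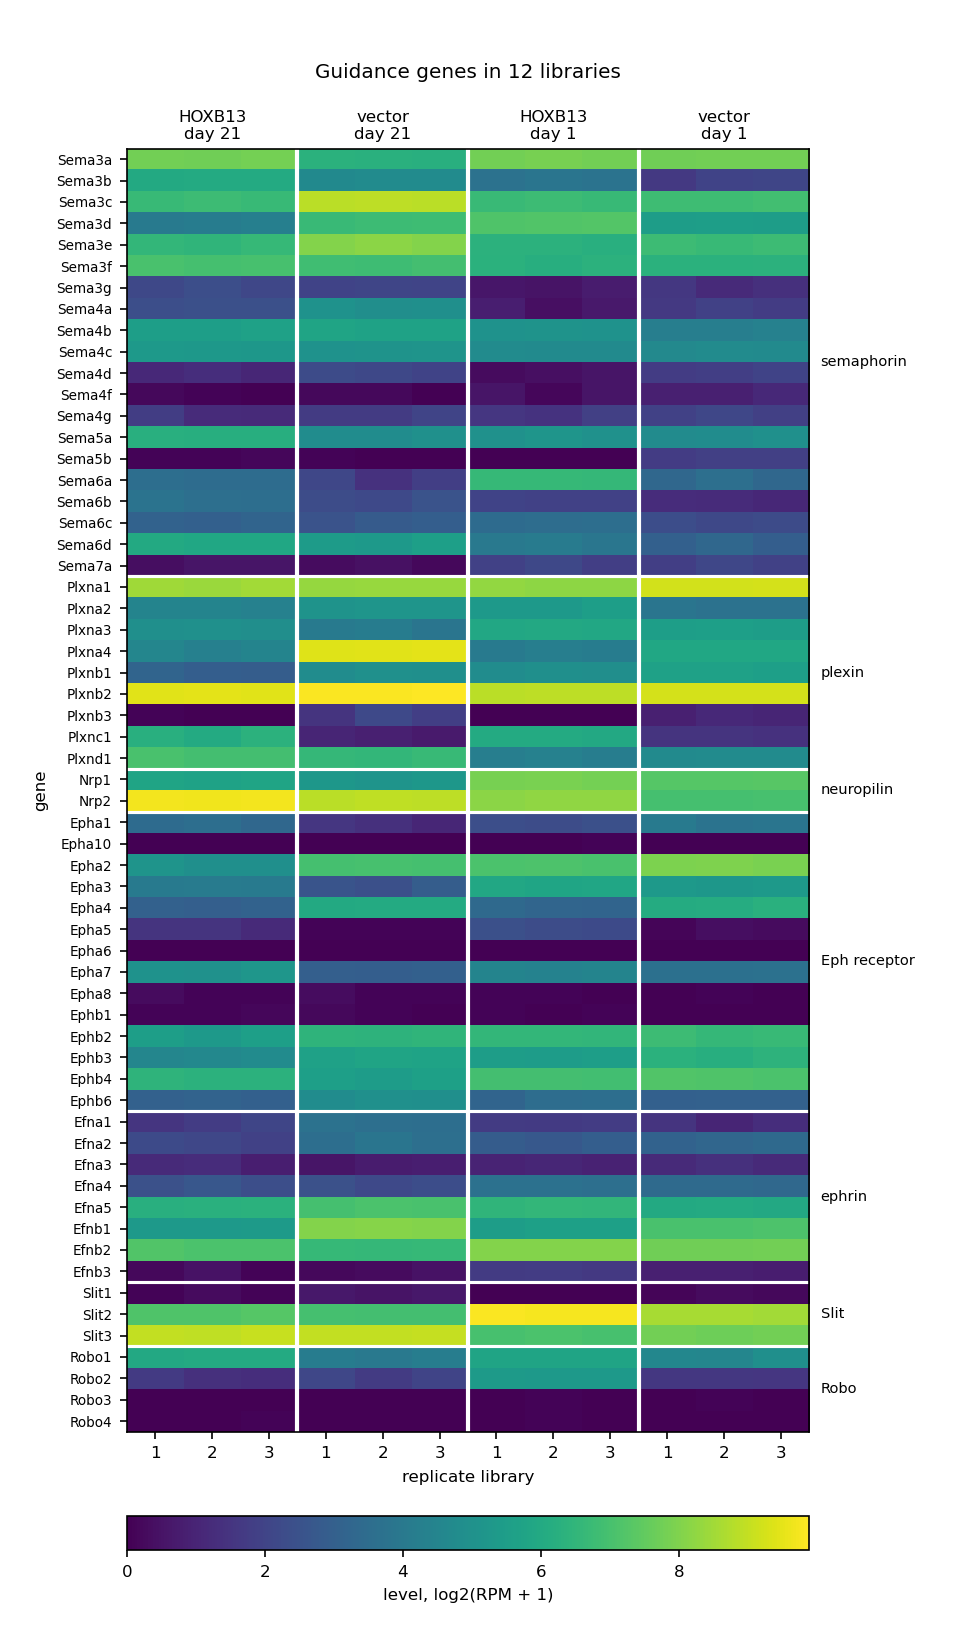
Level of each of the 60 guidance genes (rows, by family) in each of the 12 libraries (columns, 3 replicates per group) as log2(RPM + 1). Replicates look alike, and rows such as Plxnc1, Epha4 and Plxna4 change colour between HOXB13 and vector cells.

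The 2 virus comparisons share no library, but they come from the same fit and compare the same arms, which differ in sex or origin at both days. Agreement between them is therefore not replication. Called in the same direction by both were 10 members. They were 5 of 52 higher at both and 5 of 52 lower at both, where 2.87% and 2.95% of all tested genes were, and Epha5 and Plxnb3 among them entered the test through the groups where they are high. Higher in HOXB13 cells at day 21 and at day 1 were Plxnc1, Sema6a, Sema3b, Robo1 and Epha5. Lower at both were Plxna4, Epha4, Efnb1, Sema4a and Plxnb3. Called in opposite directions were Sema3d, lower at day 21 and higher at day 1, and Epha1, higher at day 21 and lower at day 1. Of all tested genes, 0.281% were called as Sema3d was and 0.311% as Epha1 was. Called at day 21 alone were 13 members, 5 higher and 8 lower, where 4.97% and 5.16% of all tested genes were. Called at day 1 alone were 7, 5 higher and 2 lower, where 4.05% and 2.80% of all tested genes were. Sema5b, among these lower members, entered the test through the vector libraries of day 1, where it is high, which favoured that call. A call at 1 day does not show that the days differ. That difference was tested as an interaction, the log2 virus difference at day 21 minus that at day 1. It was called for 22 members, 7 of them higher and 15 lower, where 7.87% and 9.53% of all tested genes were called (17.4% in all). Sema5b was among the 7, a call that its entry through the vector libraries of day 1 also favoured. By adjusted p alone, 19 members were higher and 26 lower by interaction, beside 36.6% and 31.7% of all tested genes.

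**Figure D2:**
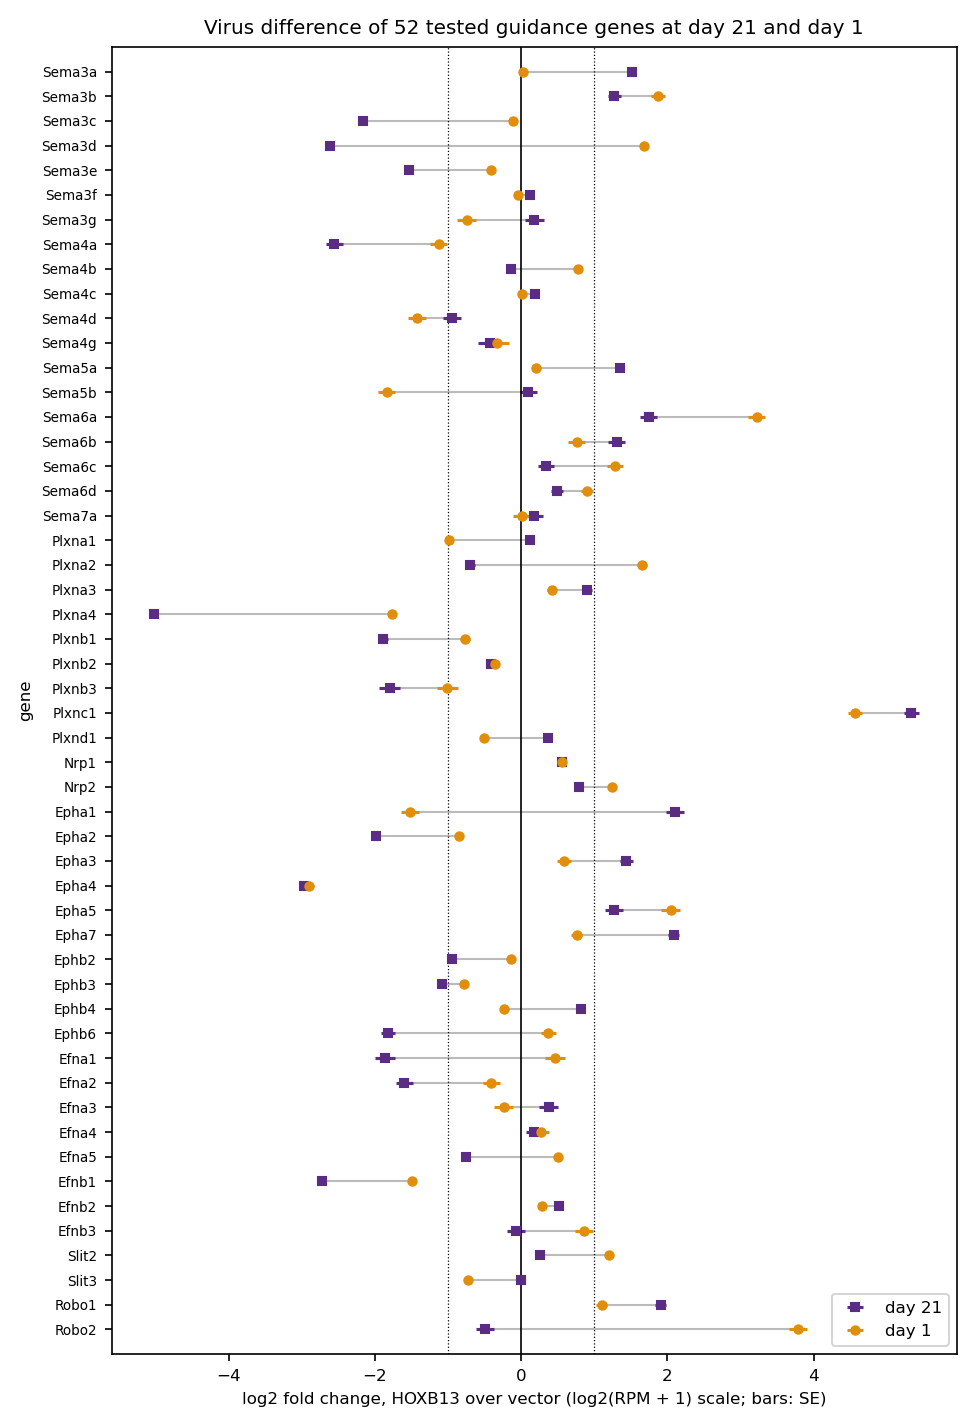
Log2 fold change of HOXB13 over vector for the 52 tested guidance genes at day 21 (squares) and day 1 (circles), with standard errors and dotted lines at 2-fold. Plxnc1 lies farthest to the right at both days, Plxna4 farthest to the left at day 21, and Sema3d, Robo2 and Epha1 have long lines between the days.

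Among plexins, HOXB13 cells carried Plxnc1 and lacked most of the Plxna4 of vector cells. Plxnc1, the receptor of the membrane-anchored semaphorin Sema7a (ENSMUSG00000074785, chromosome 10, 94790866 to 94944835, minus strand, GRCm38, GENCODE M21), had 73.4, 65.9 and 80.1 RPM in HOXB13 libraries, against 1.06, 0.825 and 0.623 RPM in vector libraries at day 21. At day 1 it had 65.9, 65.4 and 61.3 RPM in HOXB13 libraries, against 1.82, 1.78 and 1.65 RPM in vector libraries. All 6 HOXB13 libraries thus stood far above all 6 vector libraries. The mean level was 87.5-fold higher in HOXB13 at day 21 (log2 fold change 5.34 ± 0.10, limma adjusted p = 3.76e-23) and 36.7-fold higher at day 1 (log2 fold change 4.57 ± 0.10, limma adjusted p = 1.23e-21). Because vector levels lay near the pseudocount of 1, the log2 fold change ran from 3.99 to 6.46 at day 21 and from 3.57 to 5.24 at day 1 over the other settings. Its ligand gene Sema7a was low, at 0.419 ± 0.101 RPM in HOXB13 and 0.258 ± 0.110 in vector cells at day 21, and at 2.90 ± 0.435 and 2.86 ± 0.369 at day 1. It was called lower over time in HOXB13 (-1.45 ± 0.13) and vector cells (-1.62 ± 0.13), a direction that its entry through the day 1 libraries favoured.

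Plxna4, a receptor of class 6 semaphorins and, with neuropilins, of Sema3a (ENSMUSG00000029765, chromosome 6, 32144268 to 32588192, minus strand), had 22.3, 18.6 and 20.7 RPM in HOXB13 libraries, against 681, 687 and 719 RPM in vector libraries at day 21. At day 1 it had 15.2, 17.9 and 16.6 RPM in HOXB13 libraries, against 58.5, 58.4 and 58.9 RPM in vector libraries. The vector libraries of day 21 were the highest of all and the HOXB13 libraries of both days the lowest. Vector levels were 33.9-fold those of HOXB13 at day 21 (log2 fold change -5.02 ± 0.06, limma adjusted p = 3.81e-27) and 3.54-fold at day 1 (log2 fold change -1.76 ± 0.06, limma adjusted p = 1.68e-18). In vector cells Plxna4 rose over time by 3.55 ± 0.06 on the log2 scale, and in HOXB13 cells by 0.29 ± 0.06, under 2-fold. The interaction was -3.25 ± 0.08 (limma adjusted p = 2.56e-20).

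On the log2(RPM + 1) scale the other plexins differed less between the viruses than Plxnc1 and Plxna4 at day 21. Plxnb1, the receptor of Sema4d, had 8.12, 6.70 and 6.54 RPM in HOXB13 libraries, against 27.2, 30.3 and 29.5 RPM in vector libraries at day 21 (log2 fold change -1.89 ± 0.07, limma adjusted p = 6.18e-17), with no overlap. At day 1 it averaged 28.3 ± 1.33 RPM in HOXB13 and 48.8 ± 1.15 in vector cells. Plxna2, a receptor of Sema6a, was higher in HOXB13 at day 1, with 40.1, 40.01 and 45.1 RPM in HOXB13 libraries, against 13.4, 12.2 and 12.2 RPM in vector libraries (log2 fold change 1.65 ± 0.07, limma adjusted p = 1.54e-16). At day 21 its averages stood the other way, at 20.5 ± 1.01 in HOXB13 and 34 ± 1.03 in vector cells (interaction -2.35 ± 0.09, limma adjusted p = 2.25e-16). Plxnb2, a receptor of Sema4c, averaged 699 ± 7.40 RPM in HOXB13 and 928 ± 15.3 in vector cells at day 21, and 473 ± 2.85 and 607 ± 5.59 at day 1, under 2-fold apart at both. Plxna1, a receptor for class 3 and class 6 semaphorins, averaged 299 ± 10.02 RPM in HOXB13 and 594 ± 6.85 in vector cells at day 1, just under the 2-fold limit. Plxnb3, a receptor of Sema5a on chromosome X, had no read in HOXB13 cells at day 1 and 1.02 ± 0.187 RPM in vector cells, at least 16.8-fold lower in HOXB13 against a limit of 3 reads over the group. At day 21 it had 1 read over the HOXB13 libraries and 2.63 ± 0.866 RPM in vector cells. The vector level was 104 times that of HOXB13 cells, and 95% counting limits of this ratio were 18.8 and 4272.

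Per kb of exon, which allows levels of different genes to be compared, Plxnb2 was the leading plexin in all 4 groups, at 90.5 ± 0.958 RPM per kb in HOXB13 and 120.2 ± 1.99 in vector cells at day 21, and 61.3 ± 0.369 and 78.6 ± 0.724 at day 1. Next in HOXB13 cells at day 21 was Plxna1 at 38.9 ± 1.70 RPM per kb, and next in vector cells at day 21 was Plxna4 at 49.3 ± 1.42. Plxnd1, which binds Sema3e without a neuropilin, was called higher at day 21 than at day 1 in HOXB13 cells (2.71 ± 0.05 on the log2 scale) and in vector cells (1.84 ± 0.05). Its level was 124 ± 5.20 at day 21 and 18.1 ± 1.14 RPM at day 1 in HOXB13, and 96 ± 4.90 and 26.1 ± 0.478 in vector. These levels per kb rest on the summed exon length of GENCODE M21, which counts exons a transcript may not use.

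The promoter windows of 3 members are shown because Plxnc1 and Epha4 differed widely between the viruses at both days and Sema3e holds the letters of a known HOXB13 motif. Each runs from 250 bases before to 50 after a RefSeq gene start on GRCm38.p6, 5′ to 3′ on the gene's strand, and capitals mark CAATAAA or its reverse complement TTTATTG. The windows lie at chr10:94944796-94945095 (minus strand), chr1:77515039-77515338 (minus strand) and chr5:14025026-14025325 (plus strand).
Plxnc1: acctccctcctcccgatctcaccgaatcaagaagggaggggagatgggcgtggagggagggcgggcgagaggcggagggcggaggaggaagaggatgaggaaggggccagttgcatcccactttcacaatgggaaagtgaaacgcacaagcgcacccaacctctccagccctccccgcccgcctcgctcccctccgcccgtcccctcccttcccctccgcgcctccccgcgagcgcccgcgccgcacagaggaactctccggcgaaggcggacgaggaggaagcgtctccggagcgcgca
Epha4: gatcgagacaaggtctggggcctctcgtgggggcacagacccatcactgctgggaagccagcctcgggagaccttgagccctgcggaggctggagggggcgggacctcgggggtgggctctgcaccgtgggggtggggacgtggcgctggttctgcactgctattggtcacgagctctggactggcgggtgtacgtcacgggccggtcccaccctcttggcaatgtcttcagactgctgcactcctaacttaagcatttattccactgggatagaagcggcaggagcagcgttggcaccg
Sema3e: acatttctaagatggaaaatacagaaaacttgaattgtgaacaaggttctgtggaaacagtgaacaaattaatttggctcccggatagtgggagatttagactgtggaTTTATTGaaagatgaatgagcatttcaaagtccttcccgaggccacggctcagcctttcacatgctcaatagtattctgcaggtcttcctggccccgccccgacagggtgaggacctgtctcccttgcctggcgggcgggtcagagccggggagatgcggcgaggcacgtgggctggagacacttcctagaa
The Plxnc1 and Epha4 windows hold neither motif searched, CAATAAA or TCGTAAA on either strand. RefSeq windows were found for 53 of the 60 members, 69 in all. CAATAAA was in 2 of them (2.90%), those of Epha6 and Sema3e, and in 4.60% of all 32851 windows. TCGTAAA was in 1, that of Sema4c (1.45%), and in 0.597% of all windows. A match of letters is not a bound site. Their median GC content was 64% in members and 52.7% in all windows.

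Both neuropilins stood at moderate to high levels, and per kb of exon Nrp2 was the higher in all groups except vector cells at day 1. Nrp2, a receptor chain for Sema3f, had 289.9, 306 and 300.2 RPM in HOXB13 libraries, against 125, 126 and 128 RPM in vector libraries at day 1 (log2 fold change 1.24 ± 0.03, limma adjusted p = 1.76e-21). At day 21 it averaged 829 ± 11.9 RPM in HOXB13 and 480.1 ± 10.7 in vector cells, under 2-fold apart. Nrp1, which binds Sema3a and VEGF, averaged 52.4 ± 1.68 RPM in HOXB13 and 35.3 ± 1.58 in vector cells at day 21, and 231 ± 5.68 and 156 ± 3.68 at day 1. Over time the pair parted in both arms. Nrp2 was called higher at day 21 in HOXB13 (1.47 ± 0.03) and vector cells (1.92 ± 0.03), and Nrp1 was called lower in HOXB13 (-2.12 ± 0.04) and vector cells (-2.11 ± 0.04).

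Secreted semaphorins made up most semaphorin reads, and their mix differed between the arms. Of 7 class 3 genes, 2 were called higher and 3 lower in HOXB13 at day 21, and 2 higher and none lower at day 1, where 16.6% of all tested genes were called at day 21 and 13.3% at day 1. By limma's adjusted p alone Sema3e and Sema3g were lower at day 1, and so was Sema3c, which turned to higher without the TMM factor and with quantile normalization. Sema3c had 100.3, 109 and 101 RPM in HOXB13 libraries, against 462, 474 and 459.6 RPM in vector libraries at day 21 (log2 fold change -2.16 ± 0.04, limma adjusted p = 7.22e-24). The vector libraries of day 21 stood above all others, while at day 1 the means were 105 ± 3.96 RPM in HOXB13 and 113 ± 3.44 in vector cells (interaction -2.05 ± 0.05, limma adjusted p = 4.5e-20). Sema3e, the ligand of Plxnd1, had 92.5, 87.7 and 97 RPM in HOXB13 libraries, against 264, 283 and 262 RPM in vector libraries at day 21 (log2 fold change -1.54 ± 0.04, limma adjusted p = 2e-19), again with vector libraries above. At day 1 it averaged 79 ± 3.88 RPM in HOXB13 and 105 ± 5.09 in vector cells (interaction -1.13 ± 0.06, limma adjusted p = 1.33e-13).

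Sema3a, the best known repulsive semaphorin and a regulator of bone mass in mice, was held in HOXB13 cells and called lower over time in vector cells. It had 219, 212 and 224 RPM in HOXB13 libraries, against 77.6, 76.3 and 73.9 RPM in vector libraries at day 21 (log2 fold change 1.51 ± 0.03, limma adjusted p = 4.42e-22). At day 1 the means were 222 ± 7.48 RPM in HOXB13 and 218 ± 3.09 in vector cells, a difference that was not called. The interaction was 1.48 ± 0.04 (limma adjusted p = 1.55e-18). Sema3d changed sides. At day 21 it had 15.2, 17 and 18.4 RPM in HOXB13 libraries, against 104, 109 and 111 RPM in vector libraries (log2 fold change -2.61 ± 0.05, limma adjusted p = 1.04e-22). At day 1 it had 143, 145 and 149.6 RPM in HOXB13 libraries, against 44.4, 45.3 and 44.3 RPM in vector libraries (log2 fold change 1.69 ± 0.05, limma adjusted p = 6.26e-19). Its level was called lower over time in HOXB13 cells (-3.04 ± 0.05) and higher in vector cells (1.25 ± 0.05), and its interaction of -4.30 ± 0.07 was close to that of Robo2, given with the Slits and Robos (limma adjusted p = 3.18e-23).

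Sema3b was higher in HOXB13 cells at both days. It had 62.6, 64.6 and 64.2 RPM in HOXB13 libraries, against 24.7, 26.6 and 26.2 RPM in vector libraries at day 21 (log2 fold change 1.27 ± 0.09, limma adjusted p = 1.1e-11) and 12.1, 13.2 and 12.7 RPM in HOXB13 libraries, against 2.09, 2.97 and 3.22 RPM in vector libraries at day 1 (log2 fold change 1.87 ± 0.09, limma adjusted p = 8.53e-15). Within each arm the libraries of day 21 were the higher ones. Sema3f, which repels through Nrp2, averaged 128 ± 4.81 RPM in HOXB13 and 117 ± 4.97 in vector cells at day 21, and 77.1 ± 4.05 and 79.8 ± 0.939 at day 1. Sema3g stayed below 5 RPM in every group mean. Per kb of exon the leading semaphorin in vector cells at day 21 was Sema3c, at 65.1 ± 1.08 RPM per kb, and in HOXB13 cells at day 21 it was Sema3f, at 24.6 ± 0.925.

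Of the membrane-bound semaphorins, Sema6a, a ligand of Plxna2 and Plxna4, differed at both days. It had 10.9, 10.2 and 10.3 RPM in HOXB13 libraries, against 3.26, 1.65 and 2.57 RPM in vector libraries at day 21 (log2 fold change 1.74 ± 0.12, limma adjusted p = 5.96e-12) and 98.5, 97.4 and 95.8 RPM in HOXB13 libraries, against 8.81, 11.1 and 8.84 RPM in vector libraries at day 1 (log2 fold change 3.22 ± 0.12, limma adjusted p = 5.86e-17). The HOXB13 libraries of day 1 stood above the other 9. Sema6c was higher in HOXB13 at day 1, with 9.95, 10.6 and 10.9 RPM in HOXB13 libraries, against 4.0, 3.41 and 3.74 RPM in vector libraries (log2 fold change 1.28 ± 0.11, limma adjusted p = 3.93e-10), and Sema6b at day 21, with 12.6, 11.1 and 11 RPM in HOXB13 libraries, against 3.91, 3.60 and 4.75 RPM in vector libraries (log2 fold change 1.31 ± 0.11, limma adjusted p = 4.11e-10). Sema6d, a ligand of Plxna1, averaged 60.1 ± 3.34 RPM in HOXB13 and 42.6 ± 3.75 in vector cells at day 21, and was called higher over time in HOXB13 (1.93 ± 0.08) and vector cells (2.34 ± 0.08). Sema5a, a ligand of Plxnb3, had 74.2, 72.7 and 72.5 RPM in HOXB13 libraries, against 27.2, 27 and 30.3 RPM in vector libraries at day 21 (log2 fold change 1.35 ± 0.06, limma adjusted p = 9.46e-16), with an interaction of 1.15 ± 0.08.

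Class 4 semaphorins that were called were lower in HOXB13. Sema4a, which acts in immune cells and blood vessels as well as on axons, had 4.25, 4.36 and 4.32 RPM in HOXB13 libraries, against 32.1, 28.9 and 29.6 RPM in vector libraries at day 21 (log2 fold change -2.55 ± 0.12, limma adjusted p = 2.61e-15), and averaged 0.565 ± 0.220 RPM in HOXB13 and 2.41 ± 0.328 in vector cells at day 1 (log2 fold change -1.13 ± 0.12, limma adjusted p = 1.03e-08). Its interaction of -1.42 ± 0.17 was not called by DESeq2 on recovered reads (log2 -0.74, adjusted p = 0.0675, 5.19e-13 to 0.0675 over the settings). Sema4d, the ligand of Plxnb1, was low throughout, at 1.27 ± 0.190 RPM in HOXB13 and 3.36 ± 0.396 in vector cells at day 21, and 0.350 ± 0.131 and 2.63 ± 0.329 at day 1, where it was called lower (log2 fold change -1.43 ± 0.13, limma adjusted p = 4.94e-10). Sema5b had no read in HOXB13 cells at day 1 and 2.58 ± 0.186 RPM in vector cells, at least 42.2-fold lower in HOXB13, and was near 0 in both arms at day 21. Sema4b, Sema4c and Sema4g were not called in either virus comparison. Sema4b averaged 46.8 ± 2.01 RPM in HOXB13 and 51.6 ± 1.94 in vector cells at day 21, and 32.4 ± 0.601 and 18.4 ± 0.961 at day 1. Sema4c, a ligand of Plxnb2, averaged 37.6 ± 0.990 and 32.8 ± 1.20 at day 21, and 25.9 ± 0.114 and 25.6 ± 1.18 at day 1. Sema4g stayed below 3 RPM in every group mean.

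**Figure D3:**
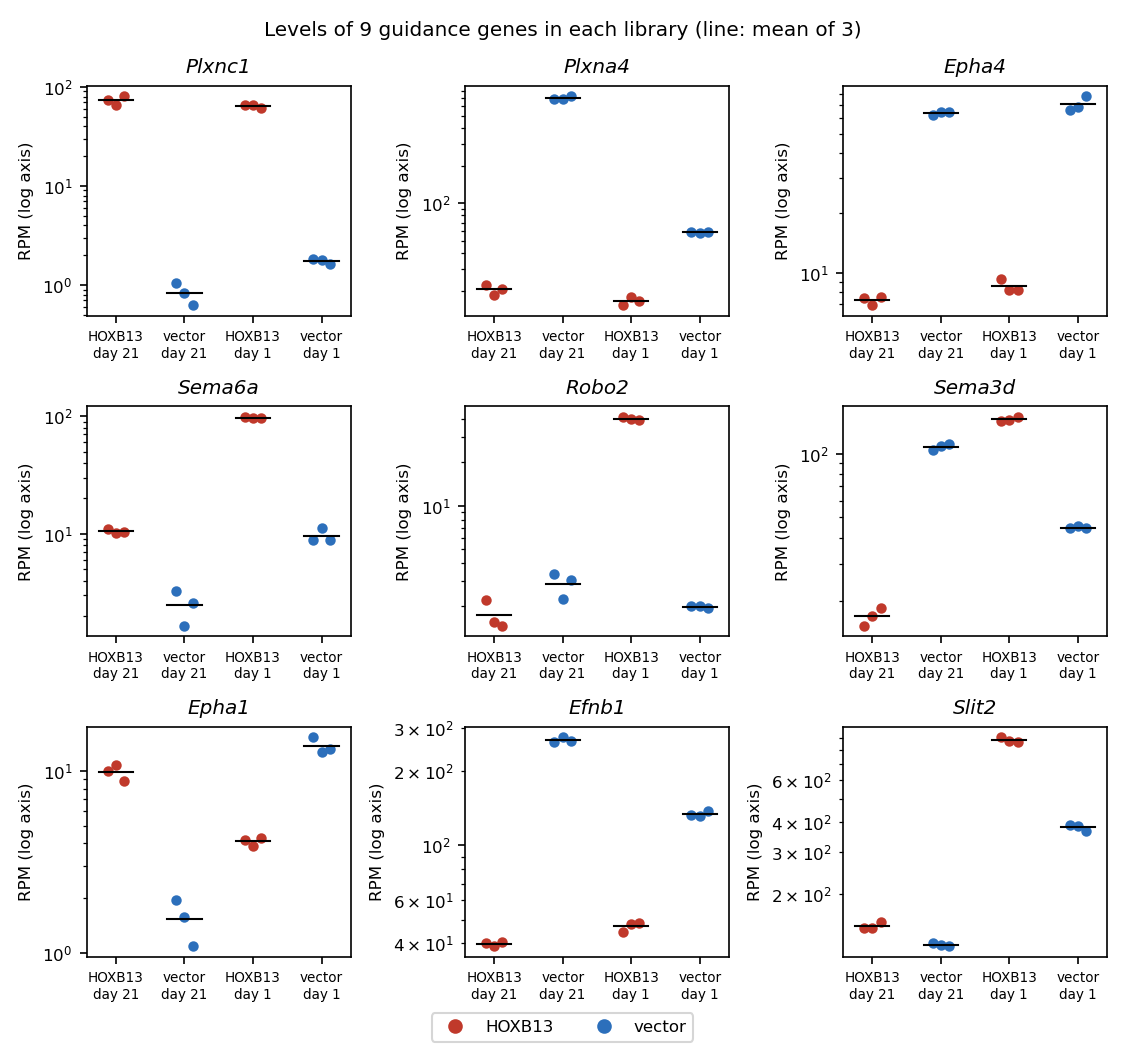
Level of 9 guidance genes in each library (points, RPM on a log axis) with the mean of 3 libraries (line), HOXB13 in red and vector in blue. Plxnc1 and Epha4 keep the same order of the viruses at both days, Sema3d and Epha1 reverse it, and Robo2 is high in the HOXB13 libraries of day 1 alone.

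Eph receptors differed between the arms at day 21 in most tested members. Of 10 tested receptors, 4 were called higher and 4 lower in HOXB13 at day 21, and 1 higher and 2 lower at day 1, beside 16.6% and 13.3% of all tested genes called at those days. Epha4, which binds ephrins of both classes (ENSMUSG00000026235, chromosome 1, 77367185 to 77515088, minus strand), had 7.51, 6.86 and 7.59 RPM in HOXB13 libraries, against 62.7, 64.9 and 64.5 RPM in vector libraries at day 21 and 9.31, 8.24 and 8.17 RPM in HOXB13 libraries, against 66.2, 68.7 and 77.4 RPM in vector libraries at day 1. All 6 vector libraries stood above all 6 HOXB13 libraries, by 8.75-fold at day 21 (log2 fold change -2.97 ± 0.07, limma adjusted p = 4.3e-21) and 8.26-fold at day 1 (log2 fold change -2.91 ± 0.07, limma adjusted p = 1.18e-20). Its difference did not pass the interaction test (-0.06 ± 0.10, limma adjusted p = 0.592). Epha2, a receptor of ephrin-A1, had 33.7, 29.5 and 29.6 RPM in HOXB13 libraries, against 123, 129 and 125 RPM in vector libraries at day 21 (log2 fold change -1.99 ± 0.04, limma adjusted p = 4.49e-22), and averaged 134 ± 3.60 RPM in HOXB13 and 243 ± 4.71 in vector cells at day 1. Over time Epha2 was called lower in HOXB13 cells (-2.08 ± 0.04), and in vector cells the fall of 0.94 ± 0.04 on the log2 scale was under 2-fold.

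Other EphA receptors, which mainly bind glycolipid-anchored ephrin-A ligands, were higher in HOXB13 cells at day 21. Epha7 had 31.7, 31.3 and 35.7 RPM in HOXB13 libraries, against 7.01, 6.67 and 7.24 RPM in vector libraries (log2 fold change 2.09 ± 0.08, limma adjusted p = 2.03e-17). Epha3 had 15.6, 16.1 and 15.9 RPM in HOXB13 libraries, against 4.97, 4.27 and 6.62 RPM in vector libraries (log2 fold change 1.44 ± 0.09, limma adjusted p = 9.16e-13). Both were also above vector at day 1, under 2-fold, with Epha7 at 20.5 ± 0.772 RPM in HOXB13 and 11.7 ± 0.134 in vector cells and Epha3 at 57.4 ± 2.38 and 37.9 ± 0.823. Epha5 was low, at 1.62 ± 0.320 RPM in HOXB13 and 0.0781 ± 0.00329 in vector cells at day 21 and 3.96 ± 0.340 and 0.204 ± 0.105 at day 1, and its ratio of HOXB13 to vector was 20.8 (95% counting interval 6.75 to 103) and 19.4 (9.34 to 44.1).

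Epha1 crossed. It had 9.94, 10.8 and 8.77 RPM in HOXB13 libraries, against 1.96, 1.57 and 1.09 RPM in vector libraries at day 21 (log2 fold change 2.10 ± 0.12, limma adjusted p = 2.37e-13) and 4.19, 3.89 and 4.30 RPM in HOXB13 libraries, against 15.3, 12.8 and 13.2 RPM in vector libraries at day 1 (log2 fold change -1.52 ± 0.12, limma adjusted p = 1.14e-10). Over time it was called higher in HOXB13 cells (1.08 ± 0.12) and lower in vector cells (-2.55 ± 0.12), with an interaction of 3.62 ± 0.17 (limma adjusted p = 1.07e-14). Its exons share 236 bases, 6.01% of their length, with the zyxin gene Zyx on the opposite strand, and while the libraries were strand-specific per the labels' protocols, how the counting treated strand is not given. Zyx stood at 427 ± 11.8 RPM in HOXB13 and 381 ± 10.8 in vector cells at day 21, and at 545 ± 16.2 and 1549.8 ± 30.04 at day 1. Both genes were highest in vector cells at day 1 and lower there at day 21. In HOXB13 cells Zyx was lower and Epha1 higher at day 21 than at day 1. The part of Zyx reads in the level of Epha1 was not tested. Without strand the reads of the shared bases cannot be told apart.

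EphB receptors bind the membrane-spanning ephrin-B ligands. Ephb3 had 22.3, 23.3 and 26.3 RPM in HOXB13 libraries, against 49.1, 54.2 and 52.5 RPM in vector libraries at day 21 (log2 fold change -1.09 ± 0.06, limma adjusted p = 5.9e-14). Ephb6, whose kinase domain is inactive, had 7.51, 7.87 and 7.10 RPM in HOXB13 libraries, against 27.3, 30.1 and 29.5 RPM in vector libraries (log2 fold change -1.82 ± 0.10, limma adjusted p = 4.14e-14), while at day 1 it averaged 9.91 ± 1.54 RPM in HOXB13 and 7.36 ± 0.165 in vector cells (interaction -2.19 ± 0.14, limma adjusted p = 1.57e-12). Ephb4, the partner of ephrin-B2, averaged 82 ± 1.87 RPM in HOXB13 and 46 ± 2.74 in vector cells at day 21, under 2-fold apart, and 119 ± 2.33 and 140.2 ± 6.21 at day 1 (interaction 1.05 ± 0.06, limma adjusted p = 1.93e-13). Ephb2 was under 2-fold apart at both days, at 44.1 ± 4.06 RPM in HOXB13 and 85.5 ± 2.46 in vector cells at day 21, and 92 ± 1.66 and 101 ± 6.69 at day 1. Over time it was called lower in HOXB13 cells (-1.05 ± 0.05). Per kb of exon the leading receptor was Ephb4 in HOXB13 cells at day 21, at 17.7 ± 0.402 RPM per kb, and Epha2 in vector cells at day 21, at 26.9 ± 0.620.

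Ephrins called between the arms were all lower in HOXB13. They were 3 of 8 at day 21, where 8.40% of all tested genes were called lower. At day 1 it was 1 of 8, where 6.06% of all tested genes were called lower and 13.3% in either direction. Efnb1, the X-linked gene of ephrin-B1, whose loss disturbs skull and limb patterning (ENSMUSG00000031217, chromosome X, 99136130 to 99148991, plus strand), had 40.1, 38.9 and 40.5 RPM in HOXB13 libraries, against 264, 275 and 266 RPM in vector libraries at day 21 and 44.6, 47.9 and 48.2 RPM in HOXB13 libraries, against 132, 132 and 138 RPM in vector libraries at day 1. Every vector library stood above every HOXB13 library, by 6.73-fold at day 21 (log2 fold change -2.72 ± 0.04, limma adjusted p = 1.3e-25) and 2.86-fold at day 1 (log2 fold change -1.50 ± 0.04, limma adjusted p = 1.84e-20). The interaction was -1.22 ± 0.05 (limma adjusted p = 9.74e-16). Efna1 had 1.90, 2.34 and 3.20 RPM in HOXB13 libraries, against 12.4, 11.1 and 10.9 RPM in vector libraries at day 21 (log2 fold change -1.86 ± 0.14, limma adjusted p = 2e-11), and 2.31 ± 0.0971 RPM in HOXB13 and 1.43 ± 0.389 in vector cells at day 1. Efna2 had 3.72, 3.27 and 2.78 RPM in HOXB13 libraries, against 10.9, 13.5 and 11.3 RPM in vector libraries at day 21 (log2 fold change -1.60 ± 0.11, limma adjusted p = 1.04e-11), with means of 6.23 ± 0.561 and 8.59 ± 0.895 at day 1.

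Efna5, a ligand of EphA receptors, averaged 76.9 ± 2.43 RPM in HOXB13 and 130.4 ± 4.66 in vector cells at day 21, and 89.8 ± 2.98 and 63.1 ± 1.45 at day 1 (interaction -1.26 ± 0.05, limma adjusted p = 1.14e-15). Efnb2, the ligand of EphB4, averaged 139 ± 7.34 and 96.6 ± 1.11 at day 21, and 265 ± 2.35 and 217 ± 3.31 at day 1, and was called lower over time in vector cells (-1.16 ± 0.03). Per kb of exon, vector cells at day 21 had Efnb1 at 77.7 ± 1.65, Efna5 at 32.3 ± 1.16 and Efnb2 at 14.1 ± 0.162 RPM per kb. In HOXB13 cells at day 21 the order was Efnb2 at 20.2 ± 1.07, Efna5 at 19.1 ± 0.602 and Efnb1 at 11.5 ± 0.245, and the first pair of these did not differ beyond the spread of the libraries. Efna4, at most 11.7 ± 0.413 RPM in a group mean, was called lower over time in both arms, and Efna3 and Efnb3 stayed below 3 RPM. Efnb3 averaged 0.204 ± 0.166 RPM in HOXB13 and 0.259 ± 0.117 in vector cells at day 21, and 2.25 ± 0.156 and 0.794 ± 0.0394 at day 1.

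Slit2 and its receptor gene Robo2 were at their highest in HOXB13 cells of day 1. Slit2 (ENSMUSG00000031558, chromosome 5, 47983138 to 48307733, plus strand) had 903, 869.7 and 864 RPM in HOXB13 libraries, against 389, 383 and 368 RPM in vector libraries at day 1 (log2 fold change 1.21 ± 0.03, limma adjusted p = 2.26e-20). At day 21 it averaged 147 ± 5.08 RPM in HOXB13 and 122 ± 2.05 in vector cells, under 2-fold apart, after a fall of 2.57 ± 0.03 on the log2 scale in HOXB13 and of 1.62 ± 0.03 in vector cells. Slit3 went the other way over time. It was called higher at day 21 in HOXB13 (1.96 ± 0.03) and vector cells (1.24 ± 0.03), and averaged 509 ± 18.8 and 511 ± 11.8 RPM at day 21 and 129.8 ± 3.78 and 216 ± 6.37 at day 1. Per kb of exon, Slit3 stood at 83.8 ± 3.10 and Slit2 at 5.77 ± 0.200 in HOXB13 cells at day 21.

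Robo2 (ENSMUSG00000052516, chromosome 16, 73891839 to 74411825, minus strand) had 2.20, 1.56 and 1.46 RPM in HOXB13 libraries, against 3.34, 2.25 and 3.04 RPM in vector libraries at day 21 and 41.2, 39.6 and 39.4 RPM in HOXB13 libraries, against 2.0, 2.0 and 1.95 RPM in vector libraries at day 1. The HOXB13 libraries of day 1 stood apart from the other 9. There the level was 20.2-fold that of vector cells (log2 fold change 3.78 ± 0.12, limma adjusted p = 3.21e-18), and the interaction was -4.28 ± 0.17 (limma adjusted p = 3.93e-16). Over the other settings that interaction ran from -5.08 to -3.14. Robo1, the other receptor expressed here, was higher in HOXB13 cells at both days, with 60.8, 65.7 and 64.7 RPM in HOXB13 libraries, against 16.6, 14.8 and 17.4 RPM in vector libraries at day 21 (log2 fold change 1.91 ± 0.07, limma adjusted p = 8.57e-17) and 54.2, 53.4 and 54.3 RPM in HOXB13 libraries, against 22.8, 22.5 and 29.1 RPM in vector libraries at day 1 (log2 fold change 1.10 ± 0.07, limma adjusted p = 4e-12). Summed neuronal markers were also higher in HOXB13 than in vector libraries at day 1, mostly through Map2, at 213 ± 2.95 and 90.8 ± 3.59 RPM, Gap43, at 83.2 ± 3.20 and 5.02 ± 0.487, and Syt1, at 32.1 ± 2.38 and 1.15 ± 0.356. Tubb3 stood the other way at day 1, at 4.81 ± 0.574 and 13.1 ± 0.804. In vector cells the sum was lower at day 21 than at day 1 while Robo2 was not. In HOXB13 cells the sum and Robo2 were both lower at day 21. There Map2 was at 5.49 ± 0.774, Gap43 at 0.941 ± 0.107 and Syt1 at 0.389 ± 0.237, while Tubb3 was at 5.60 ± 1.22. The part of these markers in the Robo2 difference was not tested.

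**Figure D4:**
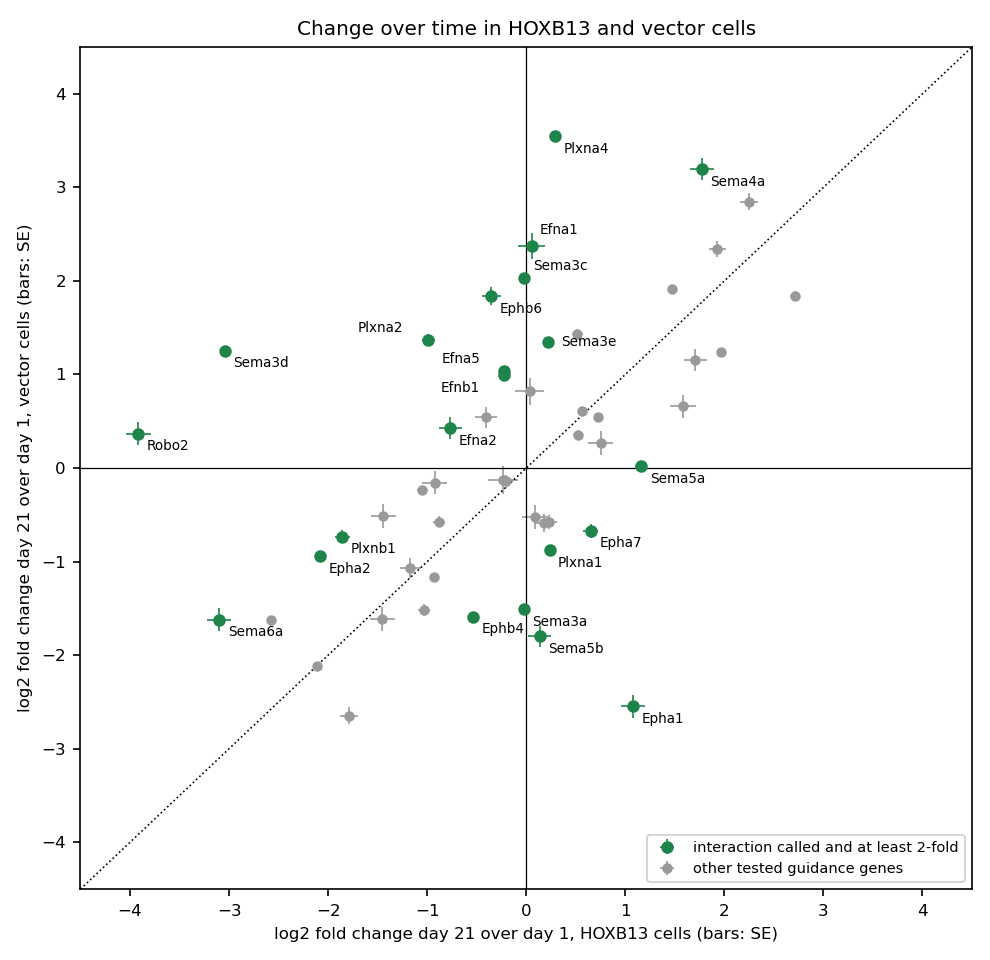
Log2 fold change of day 21 over day 1 in HOXB13 cells (horizontal) and vector cells (vertical) for the 52 tested guidance genes, with standard errors and a dotted line of equal change. The 22 members with a called interaction are green and named, with Robo2, Sema3d and Plxna4 above the line and Epha1 and Sema3a below it.

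Guidance genes differed between day 21 and day 1 in both arms, where day and medium cannot be told apart. In HOXB13 cells 10 of 52 were called higher and 13 lower at day 21 than at day 1, where 13.2% and 10.5% of all tested genes were called. In vector cells 16 were called higher and 12 lower, where 16.1% and 12% of all tested genes were called. Together these were 23 members (44.2%) in HOXB13 and 28 (53.8%) in vector cells, beside 23.6% and 28.1% of all tested genes. By adjusted p alone, 20 were higher and 24 lower in HOXB13 cells, beside 39.5% and 40.6% of all tested genes, and 25 higher and 22 lower in vector cells, beside 41.7% and 41.9%. Summed over its 20 genes, semaphorin RNA was 882 ± 11.6 RPM at day 21 and 865 ± 12.2 at day 1 in HOXB13 cells, and 1269 ± 12 and 673 ± 9.93 in vector cells. Eph receptor RNA was 256 ± 6.99 at day 21 and 495 ± 5.66 at day 1 in HOXB13, and 416 ± 6.95 and 704 ± 11.3 in vector cells. Ephrin RNA was 267 ± 5.61 and 425 ± 6.66 in HOXB13, and 523 ± 9.88 and 436 ± 5.52 in vector cells, with the lower sum at day 21 in HOXB13 and at day 1 in vector cells. No test was made of these sums.

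The 8 members that were not tested had few or no reads. Epha6 had no read in any library, and Epha10, Robo3, Robo4, Ephb1 and Epha8 had 1, 2, 2, 9 and 13 reads over all 12 libraries. Slit1 had 31 reads, with no read in HOXB13 cells at day 1 and at most 0.522 ± 0.0637 RPM, in vector cells at day 21. Sema4f had 61 reads and at most 0.944 ± 0.220 RPM, in vector cells at day 1. For scale, 3 reads over a group of 3 libraries correspond to 0.0614 to 0.0793 RPM.

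The partners and signal transducers of these families, taken from general knowledge as 96 genes in 5 lists, also differed in both directions. Of 87 tested, 21 were called higher and 15 lower in HOXB13 at day 21, and 15 higher and 15 lower at day 1, where 8.15% and 8.40% of all tested genes were called at day 21 and 7.20% and 6.06% at day 1. Among 16 partners of neuropilins, plexins and semaphorins, 4 were called higher and 4 lower at day 21 and 3 higher and 7 lower at day 1, with a median log2 fold change of 0.28 and -0.32. L1cam, a co-receptor of Nrp1 on chromosome X, averaged 52.8 ± 1.02 RPM in HOXB13 and 0.129 ± 0.0413 in vector cells at day 21 (log2 fold change 5.58 ± 0.11, limma adjusted p = 1.89e-22). The related adhesion gene Chl1 averaged 249.99 ± 0.941 and 21.8 ± 3.46 RPM (log2 fold change 3.47 ± 0.11, limma adjusted p = 6.97e-19). The VEGF receptor genes Flt4 and Kdr were lower, with Flt4 at 6.73 ± 0.292 RPM in HOXB13 and 263 ± 6.01 in vector cells at day 21 (log2 fold change -5.10 ± 0.05, limma adjusted p = 2.35e-27) and Kdr at 2.31 ± 0.235 and 31.5 ± 0.970. Endothelial markers were low at day 21, with Tek the highest at 0.986 ± 0.526 RPM in HOXB13 and 1.01 ± 0.140 in vector cells. Means of Cdh5, Emcn, Pecam1 and Erg were higher in HOXB13, with Erg at 0.523 ± 0.164 and 0.104 ± 0.0449. Esam was higher in vector cells, at 0.294 ± 0.134 in HOXB13 and 0.673 ± 0.159 in vector. Cldn5 and Sox17 were at 0 in HOXB13 cells and Sox17 in vector cells.

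Of 17 tested genes of the netrin, RGM, DCC, UNC5 and FLRT list, 4 were called higher and 4 lower in HOXB13 at day 21. Of all tested genes 8.15% and 8.40% were. At day 1, 6 of the 17 were called higher and none lower, where 7.20% and 6.06% of all tested genes were. Their median log2 fold change was 0.00 at day 21 and -0.12, below 0, at day 1, beside 0.01 and -0.03 over all genes. By limma's adjusted p alone 7 were higher and 5 lower at day 1, beside 33.9% and 38.5% of all tested genes. Ntn1, the classic attractant netrin-1, averaged 177 ± 5.07 RPM in HOXB13 and 14.2 ± 3.71 in vector cells at day 21, and 61.2 ± 2.01 and 14.3 ± 1.49 at day 1 (log2 fold change at day 21 3.58 ± 0.10, limma adjusted p = 1.38e-19). Its receptor gene Neo1 was lower, at 93.5 ± 3.34 and 331 ± 4.25 at day 21. Flrt1 was higher at day 1, at 50.4 ± 0.950 RPM in HOXB13 and 7.87 ± 0.588 in vector cells.

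Among 20 Eph and ephrin transducers, 4 were called higher and 5 lower in HOXB13 at each day (median log2 fold change -0.03 at day 21 and -0.15 at day 1). For each list here, the shares of all tested genes called higher and lower were 8.15% and 8.40% at day 21. At day 1 they were 7.20% and 6.06%. The medians over all genes were 0.01 at day 21 and -0.03 at day 1. The chimaerin genes Chn1 and Chn2, which encode Rac inhibitors, stood opposite, with Chn1 at 14 ± 0.700 RPM in HOXB13 and 0.154 ± 0.0717 in vector cells at day 21 and Chn2 at 0.729 ± 0.396 and 36.6 ± 0.919. So did the exchange factor genes Vav3, at 66.2 ± 2.82 and 5.04 ± 0.538, and Vav2, at 28.2 ± 1.51 and 160.1 ± 2.30. Of 14 Slit and Robo transducers, 5 were called higher and none lower at day 21 and none in either direction at day 1, where 5 were higher and 8 lower by limma's adjusted p alone, beside 33.9% and 38.5% of all tested genes (medians 0.38 and -0.09). They include Gpc1, a proteoglycan that binds Slit, at 354 ± 15.5 RPM in HOXB13 and 34.9 ± 1.61 in vector cells at day 21 (log2 fold change 3.31 ± 0.04, limma adjusted p = 8.54e-27). Of 20 semaphorin and plexin transducers, 4 were called higher and 2 lower at day 21 and 2 higher and 3 lower at day 1 (medians 0.12 and 0.18). Dpysl5, of the collapsin response mediator family, averaged 0.128 ± 0.116 RPM in HOXB13 and 25.8 ± 1.39 in vector cells at day 21, and Mical2, an actin oxidase, 133 ± 3.72 and 442 ± 7.54.

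Of the members, 3 (Efnb1, Plxna3 and Plxnb3) lie on chromosome X, and vector libraries carried Xist whereas HOXB13 libraries carried Y-linked transcripts. Efnb1 and Plxnb3 were lower in HOXB13 cells at both days. Plxna3, a receptor for Sema3f with Nrp2, averaged 29.2 ± 0.630 RPM in HOXB13 and 15.2 ± 1.79 in vector cells at day 21 and 60.8 ± 1.06 and 45.2 ± 1.41 at day 1, higher in HOXB13 by under 2-fold. The other 57 members lie on autosomes, and each count of calls between the viruses without genes of chromosomes X and Y is given with the other settings.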

How the data were processed

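RNA of 12 mouse libraries was sequenced, 3 in each of 4 groups of virus and day. The submitters' processing notes give no roles but name DESeq2, edgeR, HTSeq 0.6.1 and STAR 2.7.2a as tools. They name a human build, GRCh38, while the gene IDs are of mouse, and no source used here gives the mouse build or the strand setting of the counting. The deposited signal values are gene counts that the authors divided by TMM-scaled library sizes, here called RPM. Whole reads were recovered from the steps between values, and 100% of values came out whole within 0.01. Gene names, coordinates and exon lengths are those of GENCODE M21.

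limma 3.58.1 (R 4.3.3, trend) was fitted to log2(RPM + 1) of all 12 libraries over the 13516 of 55573 genes that reached 1 RPM in 3 libraries or more, a scale that understates changes of low genes. P-values were adjusted over those genes by Benjamini-Hochberg for each of 5 comparisons. The fit was also run on simulated data in which genes changed in HOXB13 cells of day 1 alone. Far fewer genes changed there than were called in the real data, so that run does not vouch for the calls here. Alternatives were 2 other pseudocounts, no filter and one of 5 RPM, 3 other scalings, edgeR 4.0.16 and DESeq2 1.42.0 on recovered reads, a replicate block, the compared libraries alone, leaving out each library and, chosen after seeing the data, a table without X-linked and Y-linked genes. Counting intervals (95%) and limits from 3 reads cover counting error only. Members and lists were chosen with earlier results of these data known. Values in every library are given for members called at least 2-fold between the viruses with a mean of at least 5 RPM in the higher group, and up to 4 called genes with the largest absolute log2 fold change in a comparison were named of each other list. Equal replicate numbers did not pair the libraries.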

Additional observations from a re-analysis of the deposited data

Results flagged for a closer look

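For 22 guidance genes the difference between HOXB13 and vector cells was not the same at day 21 as at day 1, by the interaction term of the limma fit with a limit of 2-fold. Values are the log2 fold change of HOXB13 over vector at day 21 minus that at day 1, so a negative value means that HOXB13 cells stood lower, relative to vector cells, at day 21 than at day 1.

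Among receptors of semaphorins the interaction was -3.25 for Plxna4, -2.35 for Plxna2, -1.12 for Plxnb1 and 1.11 for Plxna1. Among semaphorins it was -4.30 for Sema3d, -2.05 for Sema3c, -1.48 for Sema6a, -1.42 for Sema4a and -1.13 for Sema3e, and 1.93 for Sema5b, 1.48 for Sema3a and 1.15 for Sema5a. Sema5b had no read in HOXB13 cells at day 1 and under 0.1 RPM in both arms at day 21, so its value rests on vector cells at day 1. It passed the filter through that group alone.

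Among Eph receptors it was -2.19 for Ephb6 and -1.14 for Epha2, and 3.62 for Epha1, 1.32 for Epha7 and 1.05 for Ephb4. Among ephrins it was -2.32 for Efna1, -1.26 for Efna5, -1.22 for Efnb1 and -1.19 for Efna2. For Robo2 it was -4.28, carried by the HOXB13 libraries of day 1.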

How the results depend on the processing

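Of 228 member differences with an adjusted p under the threshold, 117 were also at least 2-fold. Over 24 alternatives none of the 117 reversed, and the Sema4a interaction alone lost its adjusted p, under DESeq2 (-0.74, adjusted p = 0.0675). With pseudocount 4, 4 members were called at least 2-fold lower in HOXB13 at day 1, and with a filter of 5 RPM 5, against 8. At least 2-fold higher by interaction were 4 without the TMM factor and 11 in edgeR, against 7. Smaller differences reversed. Without the TMM factor these were Ephb2 (0.0764) and Sema3c (0.10) at day 1, Robo1 (-0.0237), Plxna1 (-0.0266) and Sema3e (-0.0367) over time in HOXB13, and the interactions of Efnb2 (-0.0565) and Sema3f (-0.11). With quantile normalization they were Sema3c at day 1 (0.0127), Plxna1 over time in HOXB13 (-0.0157) and the interaction of Efnb2 (-0.0103). In edgeR they were the interactions of Epha5 (0.0121) and Plxnb3 (0.54), and in DESeq2 that of Epha5 (0.13). The cause was not tested. Leaving out the TMM factor moved the median of all genes to 0.15 at day 1, -0.24 over time in HOXB13 and -0.23 by interaction, against -0.03, -0.01 and 0.03. Over the whole table, the genes called at least 2-fold higher at day 1 numbered 578 with pseudocount 4 and 1468 in edgeR, against 973, and those at least 2-fold lower 527 with pseudocount 4, against 819. With pseudocount 4 those at least 2-fold lower numbered 745 at day 21, against 1135, 939 over time in HOXB13, against 1418, and 801 by interaction, against 1288, and those higher over time in vector cells 1447, against 2173. Without the TMM factor, genes past the adjusted p alone numbered 3285 lower at day 1, against 5210, and 2821 higher and 6841 lower by interaction, against 4941 and 4279. Leaving out 1 library gave 7 to 9 members at least 2-fold lower at day 1 and 11 higher, and 14 to 15 lower and 11 higher at day 21. Equal replicate numbers correlated at -0.07 to 0.07, none above 0.1, and with a replicate block the same counts, 11 higher and 8 lower at day 1 and 11 and 14 at day 21, were called. Without genes of chromosomes X and Y, 11 members were higher and 12 lower at day 21, and 11 higher and 6 lower at day 1. At these depths a group with no read, such as HOXB13 cells for Plxnb3 and Sema5b at day 1, gives a limit and no fold, and one with 1 to 3 reads, as for Plxnb3 and Epha5 at day 21, a ratio with a wide counting interval.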
